A study of Mus musculus with 6 samples.

Results

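The genes described here encode potassium, sodium and calcium channels: all probes whose annotated symbol starts with Kcn and a letter, Scn and a digit, or Cacna, Cacnb or Cacng, with Kcnq1ot1 left out. The rule found 111 of the 21766 probes on the array, for 94 of 15063 genes, and it uses names alone. The channel genes were nevertheless selected on a measured value, since the ratio of the potassium channel gene Kcnc1 on these same arrays drew attention to them. The values of Kcnc1 are therefore a description, and counts of calls are also given without it. Potassium channels made up 63 genes (71 probes), sodium channels 9 genes (11 probes) and calcium channels 20 genes (27 probes). The remaining 2 probes are annotated to the antisense transcripts Kcnd3os and Kcnmb4os1, which encode no channel and were kept apart from the ion groups. Both are among the 111 channel probes. Kcnmb4os1, which could be fitted, is included in every total given over all fitted channel probes.

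Cation channels set how a neuron fires. Voltage-gated sodium channels carry the upstroke of the action potential, voltage-gated potassium channels end it, calcium channels couple voltage to transmitter release and gene expression, and inward rectifier and two-pore potassium channels hold the resting potential. The early cortical wall consists largely of dividing progenitors with the first young neurons at its outer side, and many channels reach their full expression only later, as neurons mature. The Kv3 family, to which Kcnc1 (Kv3.1) and Kcnc2 (Kv3.2) belong, opens and closes fast and lets neurons such as fast-spiking interneurons fire at high rates.

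The study asked which transcripts differ in the cortex when Mest (also called Peg1), an imprinted gene expressed from the father's copy, is disrupted. RNA of 6 single cortices of E12.5 mouse embryos that inherited from their father a LacZ-targeted Mest allele without exons 3 to 8 (mutants 1, 3, 4, 5, 6 and 7) was compared on 6 two-colour arrays with RNA from wild-type cortices, 1 cortex per channel. The mutant carried Cy5 on the arrays of mutants 3, 5 and 6 and Cy3 on those of mutants 1, 4 and 7, and 3 wild-type cortices (numbered 2, 8 and 9 in the design) each served 2 arrays, once per dye, reading as 2 the wild type labelled 1 that was paired with mutant 3; mothers were wild type, no strain is named in the sources used here, and the allele is inherited in the whole embryo, so that no result can be placed in one cell type. Values are log2 ratios, positive where the mutant is higher, after each array was centred on its median; they are listed for mutants 3, 5 and 6 and then for mutants 1, 4 and 7. No signal level was used, so ratios of 2 genes say nothing about which is more abundant, and in whole cortices fewer cells of a type and less RNA per cell cannot be told apart.

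Mest itself had a fitted log2 ratio of -1.59 (SE 0.13), with values from -2.07 to -1.36 and below 0 on 6 of 6 arrays. The direction of the deposited ratios was read from Mest, so this value does not check the labels independently. Between 75.4% and 89.9% of all probes had a value on an array. For the channels the share was 69.4% on the array of mutant 5 and 96.4% on that of mutant 6. Values were present on all 6 arrays for 71 of the 111 channel probes (64.0%, against 62.2% of all probes). A fit needed values on at least 4 arrays with at least 2 per dye orientation, which 94 channel probes of 83 genes met, among 17476 probes in all.

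The regulatory sequence before Kcnc1 and before its relative Kcnc2 is shown because the ratios of these 2 Kv3 genes had opposite signs. Both stretches are the 250 bases before an annotated RefSeq start in assembly GRCm38.p6, on the plus strand, at chr7:46396218-46396467 for Kcnc1 and at chr10:112269767-112270016 for the first of the Kcnc2 starts. Capitals mark the GC box GGGCGG, the core of sites for Sp1-type factors, on either strand.
Kcnc1: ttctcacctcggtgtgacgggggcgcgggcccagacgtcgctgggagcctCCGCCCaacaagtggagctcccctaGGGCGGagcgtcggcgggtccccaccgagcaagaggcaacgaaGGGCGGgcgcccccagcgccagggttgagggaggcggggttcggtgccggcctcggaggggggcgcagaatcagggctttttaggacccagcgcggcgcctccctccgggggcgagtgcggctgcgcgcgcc
Kcnc2: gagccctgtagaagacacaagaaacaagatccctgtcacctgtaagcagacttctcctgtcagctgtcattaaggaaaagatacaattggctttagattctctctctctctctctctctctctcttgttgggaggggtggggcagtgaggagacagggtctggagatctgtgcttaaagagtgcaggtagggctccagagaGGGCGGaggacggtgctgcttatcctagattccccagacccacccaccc
The Kcnc1 stretch holds 3 GC boxes and 30 CG dinucleotides and is 74.4% G and C. The Kcnc2 stretch holds 1 GC box and 2 CG dinucleotides and is 52.4% G and C. The stretches before the other Kcnc2 starts hold 0 GC boxes and 4 or 5 CG dinucleotides and are 52.8% to 58.8% G and C. Among 107 promoter windows of 75 channel genes matched by gene identifier, 40.2% had a GC box on either strand. Of all 32851 windows of this length, 32.7% had one. TATAAA, the TATA box, was found in 3.74% of the channel windows (those of Cacna1d, Kcnj16, Kcnj9 and Scn2a) and in 12.4% of all windows. The stretches TTCAGCACC and GGACAGCG of the RE1 element, bound by the repressor Rest of neuronal genes, were found in 0 and 2 of the channel windows (Cacnb1 and Kcnj4 for the second), against 0.301% and 0.992% of all windows. No motif searched overlaps another in its letters, and each match describes the letters in the window only.

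Kcnc1 had the lowest ratio of the 94 fitted channel probes. Its values were -2.21 for mutant 3 and -1.02 for mutant 6, and then -3.17 for mutant 4 and -2.80 for mutant 7, with no value on the arrays of mutants 5 and 1. All 4 values lay below -1, and both dye orientations had values. Each of the 3 wild types was represented if the wild type labelled 1 is read as 2. By the labels alone, wild type 2 was not represented. The mean over these arrays was -2.30 ± 0.94 (SD, n = 4), and the fit, which therefore leaves out 2 arrays, gave -2.34 with a standard error of 0.26, a level 5.07-fold lower in mutants. It ranked 13 from the lowest among the 17476 fitted probes. Among fitted probes, all values below -1 were found for 1 channel probe, Kcnc1, and for 6 of the 17476, and all values above 1 for 0 channel probes and for 2 of the 17476. The mean was -1.61 where the mutant carried Cy5 and -2.99 where it carried Cy3, so the values of the 2 orientations did not overlap although both lay below 0. The deposited value for mutant 4, 2.585, is to the third decimal a ratio of 6 on the log2 scale. Deposited values that match a ratio of small whole numbers (up to 10 over up to 10) in this way can also arise by chance. They occurred at least once for 30.6% of channel probes and 30.7% of all probes. The signal behind the Kcnc1 values was not used here, so how far the spots lay above background is unknown.

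Kcnc2, the other Kv3 gene with a probe, had values on 3 arrays, too few for the fit. They were 1.79 for mutant 6, 0.20 for mutant 1 and 1.42 for mutant 4, all above 0, with a mean of 1.14 ± 0.83 (SD, n = 3). The deposited value for mutant 4 again equals a whole-number ratio on the log2 scale, 4 in size. On the 2 arrays with a value for both Kv3 genes, those of mutants 6 and 4, Kcnc1 was below 0 and Kcnc2 above it.

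Set beside the other Kv subunits that form channels alone, Kcnc1 stood 1.89 below the next lowest, Kcnd1. Silent Kv subunits, which form no channel alone, were left out of this gap. One of them, Kcnv1, lay nearer to Kcnc1, at -1.03. The Shaker family Kv1 (7 probes) had fitted ratios from -0.29 for Kcna5 to 0.84 for Kcna7. Kv4, whose members carry the A-type current of dendrites, ranged over 3 fitted probes from -0.45 for Kcnd1 to 0.17 for Kcnd2, and Kv7, the family of the M current, over 4 probes from -0.32 to 0.53. The eag and erg family Kv10-12 had 4 of its 5 fitted probes above 0, from -0.04 to 0.61, where 51.3% of all fitted probes lay above 0. The differences between families were not tested, because Kcnc1 was chosen by its ratio.

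**Figure D1:**
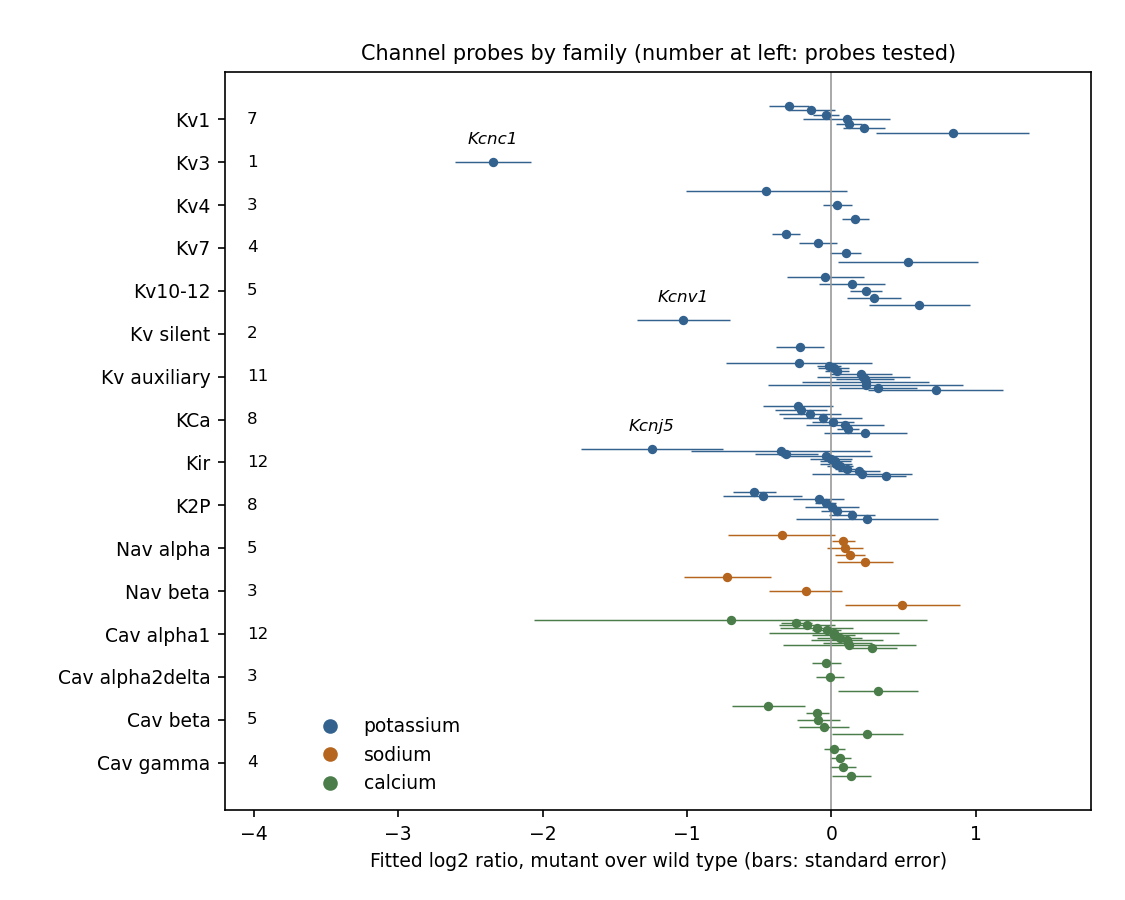
Fitted log2 ratio of mutant over wild type (x axis) for the fitted probes of each channel family (y axis), each point a probe with its standard error as a bar, coloured by ion. Kcnc1 lies at -2.34, Kcnj5 at -1.24 and Kcnv1 at -1.03, while the other probes lie between -0.72 and 0.84.

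Over all channels, no fitted probe passed limma's test of mutant against wild type with Benjamini-Hochberg adjustment over all probes. The count was 0 of 94 at an adjusted p under 0.05, against 0.0% of all probes, and the lowest adjusted p of a channel probe was 0.90. Mest itself, at -1.59, did not pass either, so this test cannot tell unchanged channels from changed ones. An unadjusted p under 0.05 was reached by 4 channel probes, those of Kcnc1, Kcnk16, Kcnv1 and Kcnq1 (4.26%, against 3.93% of all probes). Kcnc1 is counted among them but was chosen by its ratio, so its call supports nothing, and without it 3 of 93 fitted probes remain (3.23%). All 4 were lower in mutants (2.33% of all probes were called lower) and 0 were higher (1.6% of all probes). That direction depends on the centring: with arrays centred on Gapdh control spots 11 channel probes were called higher and 2 lower, where 15.3% and 0.515% of all probes were. The count of 4 became 7 without mutant 5 (6.93%, against 4.67% of all probes) and 2 without mutant 7 (2.04%, against 2.9%). The count called lower became 2 without mutant 3 or without mutant 7, with 1.78% and 1.8% of all probes called lower then. Before any adjustment the share of channel probes called was thus close to that of the whole array.

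Fitted ratios of the channels centred on 0. The median was 0.04 over all 94 probes, 0.04 over 61 potassium probes, 0.09 over 8 sodium probes and 0.02 over 24 calcium probes, against 0.007 over all probes. Above 0 lay 36 of the potassium, 5 of the sodium and 13 of the calcium probes (59.0%, 62.5% and 54.2%, against 51.3% of all fitted probes). The calcium median changed sign to -0.009 with arrays scaled to equal spread, to -0.015 with quantile normalization and to -0.03 without mutant 3, and the potassium median was -0.00025 without mutant 5. Within 0.25 of 0 were 70 channel probes (74.5%, against 70.0% of all probes). At least 0.5 in size were the ratios of 10 channel probes, against 13.1% of all probes, and at least 1 in size those of Kcnc1, Kcnj5 and Kcnv1, against 3.5%. The median standard error of the channel probes was 0.18, and no ratio of any size on these arrays passed the adjusted threshold.

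Among the 94 fitted channel probes 8 kept 1 sign on every array with a value (8.51%, against 5.57% of all fitted probes), and 7 of 93 without Kcnc1 (7.53%). They were 4 above 0 (Kcnj6, Kcnh2, Kcnd2 and Kcnu1, against 2.44% of all probes) and 4 below 0 (Kcnc1, Kcnk16, Cacna1h and Cacnb2, against 3.12%). With fewer arrays a sign is kept more easily, and the count was 13 without mutant 1 (13.3%, against 10.9% of all probes), 14 without mutant 3 (13.7%, against 8.68%), 13 without mutant 5 (12.9%, against 8.62%) and 14 without mutant 6 (14.7%, against 11.5%). Probes that were not fitted, 7 of which also had values of 1 sign on the 1 to 3 arrays with a value, are not in these counts.

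Kcnk16 encodes TALK-1, a two-pore potassium channel opened by alkaline pH and known from the pancreas. Its values were -0.37, -0.67 and -0.20 with the mutant in Cy5 and -0.87, -0.24 and -0.86 with the mutant in Cy3. All 6 lay below 0 and the orientations overlapped. The fitted ratio was -0.53 with a standard error of 0.15, a 1.45-fold lower level, and limma's adjusted p was 0.90. Kcnk16 had the lowest ratio of the 8 fitted two-pore probes, of which 4 lay above and 4 below 0. Kcnk5, an acid-sensitive channel, was next at -0.48, without values for mutants 5 and 7.

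Kcnv1 encodes Kv8.1, a subunit that forms no channel alone and modifies Kv2 channels. Its values were -0.94 and 0.21 for mutants 3 and 6 and -2.51, -0.97 and -1.89 for mutants 1, 4 and 7, without a value for mutant 5. One value was above 0, and all 3 values with the mutant in Cy3 lay below both of the others. The fit gave -1.03 (SE 0.32). The deposited Kcnv1 values for mutants 3 and 7 match ratios of small whole numbers, 1.6 and 4.5 in size. At least 2 such values occurred for 3.60% of channel probes and 7.21% of all probes. Without those probes, 3 channel probes reached an unadjusted p under 0.05 in limma (3.3%, against 4.04% of all probes). Kcns1, also a silent subunit (Kv9.1), lay below 0 on 5 of 6 arrays, with values of -0.54, 0.47 and -0.27 and then -0.28, -0.26 and -0.42. The third gene of this kind, Kcng4, had values on the arrays of mutants 3 and 5 alone, -0.57 and -2.20.

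Kcnj5, a cardiac and neuronal subunit of G protein-gated inward rectifiers (GIRK4), had the second lowest fitted ratio, -1.24 (SE 0.49). Its values were 1.40 and 0.33 for mutants 3 and 6 but -2.06 and -4.29 for mutants 1 and 4, with none for mutants 5 and 7. The sign followed the dye, so the fitted ratio averages values on both sides of 0. Kcna7 (Kv1.7), with the highest fitted ratio of 0.84 (SE 0.53), had values of 3.48 and 0.91 for mutants 3 and 6 and of -0.06 and -0.62 for mutants 1 and 4. Here too the 2 orientations fell on different sides of 0. Kcnv1, Kcnj5 and Kcna7 were singled out after their values were seen.

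The 4 fitted potassium channel probes with every value above 0 had fitted ratios of 0.12 to 0.38. Kcnj6, the GIRK2 subunit of neuronal G protein-gated inward rectifiers, gave on this probe 0.56 and 0.18 for mutants 3 and 6 and 0.36 and 0.43 for mutants 1 and 7, a fitted 0.38 (SE 0.14) from 4 arrays. Kcnh2, the erg channel, gave 0.11, 0.50 and 0.14 and then 0.03, 0.19 and 0.48, a fitted 0.24 (SE 0.11). Kcnd2, the Kv4.2 subunit of the A-type current, ranged from 0.01 to 0.53 with a fitted 0.17 (SE 0.10). Kcnu1, the sperm channel Slo3, ranged from 0.04 to 0.25 with a fitted 0.12 (SE 0.08). In each of these the orientations overlapped, and limma's adjusted p was 0.90 for each.

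**Figure D2:**
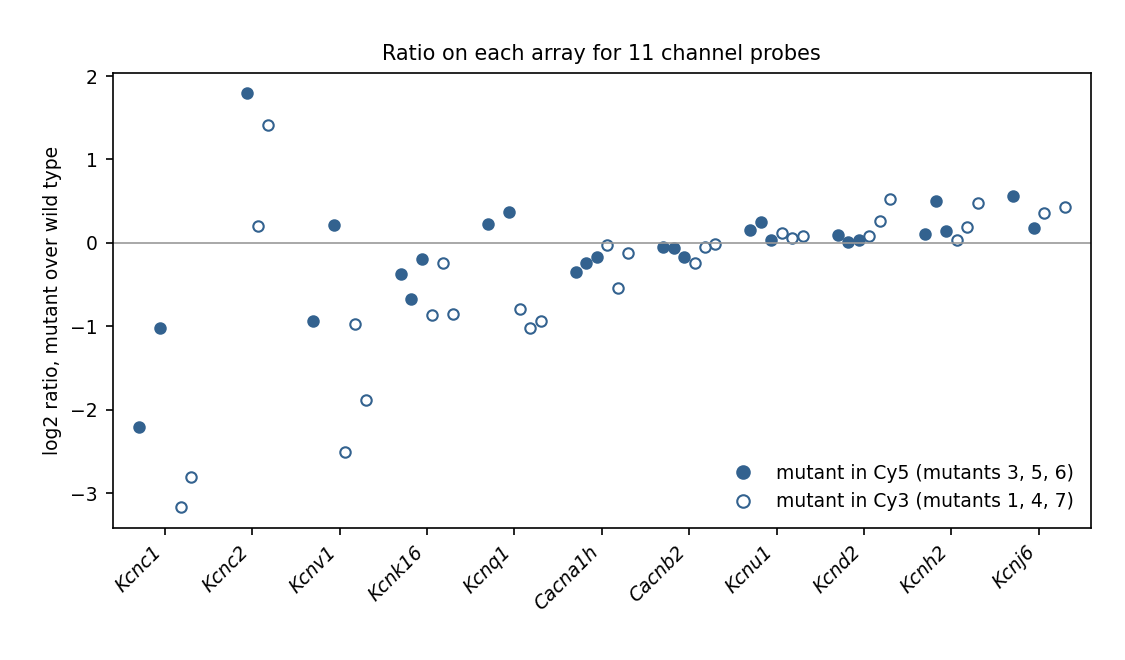
Log2 ratio of mutant over wild type on each array (y axis) for 11 channel probes (x axis), with filled points for the mutant in Cy5 and open points for the mutant in Cy3. Kcnc1 lies below -1 on all 4 arrays with a value and Kcnc2 above 0 on 3, while the other fitted probes with 1 sign on every array with a value stay within 0.87 of 0.

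The remaining potassium channel groups spread on both sides of 0. Of 11 fitted auxiliary subunits of Kv channels 9 lay above 0 (81.8%, against 51.3% of all fitted probes), with a median of 0.22. Kcnab2, a cytoplasmic beta subunit, gave 1.16, 1.88 and -0.07 and then 0.08, -0.36 and 1.65, and Kcne3, a small membrane subunit, had 1.76 for mutant 3 and values between -0.36 and 0.40 otherwise. No auxiliary subunit kept 1 sign on every array. The other auxiliary subunits had fitted ratios from -0.23 for Kcne2 to 0.24. Calcium-activated channels and their beta subunits, grouped here with Kcnu1 (Slo3), had 4 of 8 fitted probes above 0. Among them Kcnmb2 and Kcnmb1, beta subunits of the BK channel, had fitted ratios of -0.21 and 0.24 (SE 0.18 and 0.29), and the BK pore Kcnma1 had 0.01. Apart from Kcnu1, none of this group kept 1 sign on every array. Inward rectifiers had 7 of 12 above 0, with 0.19 (SE 0.15) for Kcnj1, the renal channel ROMK. In Kv10-12, Kcnh1 (eag) had 0.61 (SE 0.35), with -0.40 for mutant 3, -0.14 for mutant 1 and the other 4 values between 0.23 and 1.84, and Kcnh7 had 0.14. In Kv1, Kcna5 was below 0 on 5 of 6 arrays (-0.29, SE 0.14) and Kcna6 had 0.22 (SE 0.14), with 0.9995 for mutant 5. No Kv1 probe kept 1 sign on every array. Kcnd3 had 0.04 and Kcnd1 -0.45, the latter with -2.76 for mutant 5. Kcnq5, a neuronal M-current subunit, had 0.53 (SE 0.49) with values from -0.65 to 2.35. In the two-pore family, Kcnk4 (TRAAK) had 0.14 and Kcnk1 (TWIK-1) -0.04.

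Sodium channels gave fitted ratios from -0.72 to 0.49. The pore-forming subunits of central neurons, Scn1a and Scn2a, had 0.08 (SE 0.08) and 0.10 (SE 0.12), the sensory-neuron channels Scn10a and Scn11a had 0.23 (SE 0.19) and 0.13 (SE 0.10), and Scn7a, an atypical channel involved in sodium sensing, had -0.34 (SE 0.37). Scn11a was above 0 on 5 of 6 arrays, with -0.33 for mutant 1. Of the beta subunits, which attach to the pore and steer its placement, Scn2b had 0.49 (SE 0.40) with values from -0.32 to 1.98. Scn3b was measured by 2 probes. On the first the values were 0.31 and -0.30 for mutants 3 and 6 and -1.13, -0.94 and -2.49 for mutants 1, 4 and 7, a fitted -0.72 (SE 0.30) without mutant 5. On the second they were -0.51, -0.30 and -0.29 and then -0.71, -0.22 and 0.97, a fitted -0.18 (SE 0.25). No fitted sodium channel probe reached an unadjusted p under 0.05 or kept 1 sign on every array. Scn3a, a sodium channel known for its expression in the embryonic brain, had 1 value, 2.41 for mutant 6, and could not be fitted.

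Calcium channel pores ranged from -0.70 to 0.28. The T-type channel Cacna1h (Cav3.2), which opens near the resting potential, was below 0 on 6 of 6 arrays by 1 probe, with values of -0.35, -0.24 and -0.17 and then -0.03, -0.54 and -0.12 and a fitted ratio of -0.24 (SE 0.11). Its relative Cacna1g (Cav3.1) gave 0.80, 0.39 and 0.01 and then -0.15, 0.54 and 0.12, a fitted 0.28 (SE 0.17). The standard errors do not separate either from 0 after adjustment (limma's adjusted p 0.90 for each), and their difference was not tested. Cacna1b, the N-type channel of presynaptic terminals, had only positive values where the mutant carried Cy5 (0.92, 0.41 and 0.04) and only negative ones where it carried Cy3 (-0.97, -0.26 and -1.15), for a fitted -0.17 (SE 0.20).

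Auxiliary calcium channel subunits had fitted ratios from -0.44 to 0.32. Cacnb2, a cytoplasmic beta subunit, was below 0 on 6 of 6 arrays, from -0.24 to -0.02, with a fitted -0.10 (SE 0.08). Of the 5 fitted beta subunit probes 1 lay above 0, against 51.3% of all fitted probes. The alpha2/delta subunits, which bring pores to the membrane, had 0.32 (SE 0.28) for Cacna2d3, -0.03 (SE 0.10) for Cacna2d2 and -0.01 for Cacna2d1, and the value of Cacna2d3 for mutant 5 was 1.52. All 4 fitted gamma subunit probes were slightly above 0, from 0.02 to 0.14, where 51.3% of all fitted probes lay above 0. The highest were Cacng2 (stargazin) at 0.14 (SE 0.14) and Cacng3 at 0.08 (SE 0.09), both known for carrying AMPA receptors to synapses.

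The 2 dye orientations were compared for each channel probe. In 30 of the 94 probes (31.9%) the values of the 2 orientations did not overlap, against 29.7% of all probes. The counts were 17 of 61 for potassium, 2 of 8 for sodium and 10 of 24 for calcium channels, and the other 1 was the antisense transcript Kcnmb4os1. Mean ratios of opposite sign in the 2 orientations were found for 64 channel probes (68.1%, against 58.9% of all probes). At an adjusted p under 0.05 for the dye term, limma called 0 channel probes, against 0.269% of all probes, and the lowest such adjusted p was 0.087. The 3 largest differences, Cy5 minus Cy3, were 3.95 for Kcnj5, 3.05 for a probe of Cacna1h and 2.68 for Kcna7. Kcnc1, at 1.43, belongs to the probes that stay on 1 side of 0 in both orientations.

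**Figure D3:**
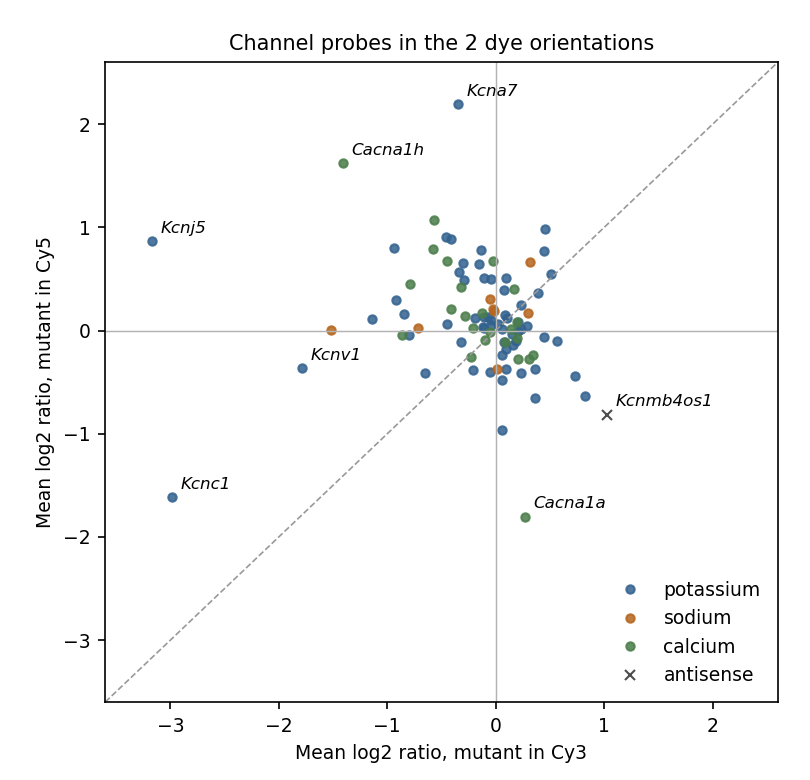
Mean log2 ratio over arrays with the mutant in Cy3 (x axis) against that over arrays with the mutant in Cy5 (y axis), 1 point per fitted channel probe, with equal values on the dashed line. Kcnc1 lies at -2.99 and -1.61, Kcnj5 at -3.17 and 0.87, and 64 probes lie in the quadrants of opposite sign.

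Where a gene had more than 1 fitted probe, the probes often differed. This was so for 8 channel genes, of which 6 had probes of opposite sign, against 419 of 776 such genes on the whole array (54.0%). Cacna1a, the P/Q-type pore, had -0.70 (SE 1.36) on a probe with values from -4.17 to 3.61 and 0.02 (SE 0.15) on the other. The probes of Cacnb4, a beta subunit of brain calcium channels, had -0.44, -0.09 and 0.25, and those of Kcnj6 had -0.31, 0.11 and 0.38. Thus the Kcnj6 probe with every value above 0 was 1 of 3, and the first of the others had 4 of 5 values below 0. Cacna1h had 0.02 (SE 0.45) on its second probe, with 2.48 and 0.76 for mutants 3 and 6 and -0.65 and -2.17 for mutants 1 and 4. Kcnq1 (Kv7.1), a channel of heart and inner ear in an imprinted region, had fitted ratios of -0.32, -0.09 and 0.10. On the first of these probes the values were 0.22 and 0.37 for mutants 3 and 6 and -0.79, -1.02 and -0.94 for mutants 1, 4 and 7, so that its low unadjusted p came with values on both sides of 0. Kcnc1 and Kcnk16 had 1 probe each, so no second probe measured them.

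**Figure D4:**
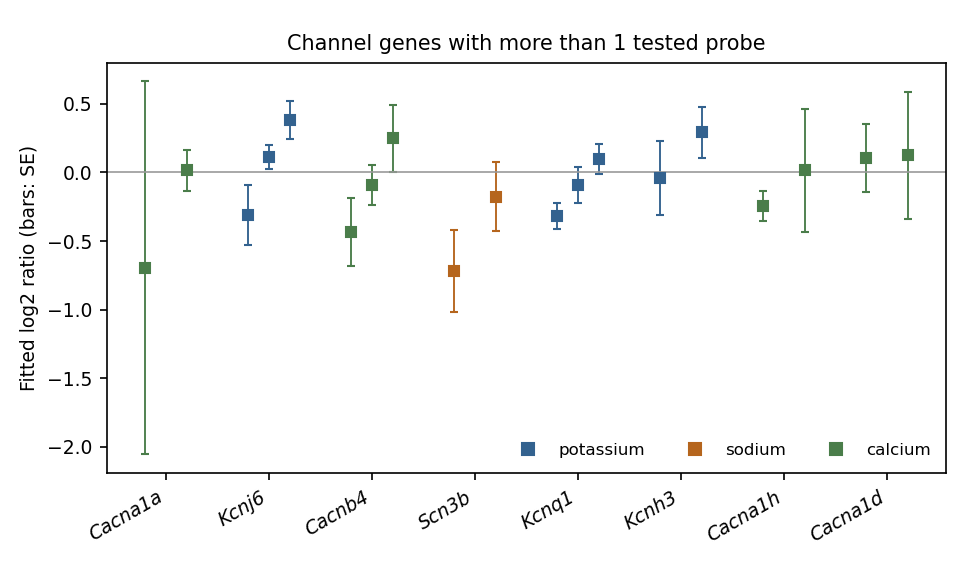
Fitted log2 ratio of mutant over wild type (y axis) with its standard error for each fitted probe of the 8 channel genes that had more than 1 (x axis), coloured by ion. The probes of Cacna1a, Kcnj6, Cacnb4, Kcnq1, Kcnh3 and Cacna1h lie on both sides of 0.

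The 17 probes that could not be fitted had values on fewer than 4 arrays or fewer than 2 in an orientation. They left 11 genes without a fitted probe: Kcnc2, Kcnj2, Kcnj11, Kcnab1, Kcnh5, Kcnn1, Kcng4, Scn3a, Scn9a, Cacng6 and the antisense transcript Kcnd3os. Kcnj2, the classical strong inward rectifier, had 1 value, -8.65 for mutant 5. Kcnh5 had 0.99, 3.502 and 2.20 for mutants 6, 4 and 7, all above 0, and a ceiling value for mutant 3 that was taken as missing. Cacng6 had 2.05 and 0.87 for mutants 6 and 4, and Scn9a had -2.83, -0.62 and 2.21 for mutants 5, 6 and 1. Kcnn1, a small-conductance calcium-activated channel, had 4 values, from -0.22 to 2.70, but only 1 with the mutant in Cy3. Second or further probes of Kcnk4, Kcnma1, Scn7a, Cacng2, Kcnd1 and Cacnb4 were also left out. Of the antisense transcripts, Kcnd3os had 1 value, -1.51 for mutant 3, and Kcnmb4os1 had -0.49 and -1.14 for mutants 3 and 6 and 0.54, 1.74 and 0.80 for mutants 1, 4 and 7. Kcnmb4, the host gene by name, had a fitted ratio of -0.23 (SE 0.24).

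Other genes of ion currents and of channel placement, from a list of 67, had fitted probes for 39 genes. Of these 50 probes 27 lay above and 23 below 0, with a median of 0.04, and 0 passed limma's adjusted threshold. Asic1, an acid-sensing channel, was the 1 probe with an unadjusted p under 0.05 in limma, against 3.93% of all probes. It was above 0 on 6 of 6 arrays, as 2.44% of all probes were on every array with a value. Its values ran from 0.05 to 0.48, with a fitted 0.24 (SE 0.09). Next in order were the intracellular calcium release channels Itpr3 at -0.18 (SE 0.08), Ryr1 at -0.19 (SE 0.10) on 1 of its probes and Itpr2 at 0.16 (SE 0.08).

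Cell type markers were set beside the channels because channels differ between progenitors, neurons and other cells. Markers of young neurons had a median of -0.03 over 12 fitted probes, 2 of them above 0, and their median per array ranged from -0.38 for mutant 7 to 0.24 for mutant 4. The channel median per array ranged from -0.08 for mutant 6 to 0.11 for mutant 5. Markers of neural progenitors had a median of 0.01, with 6 of 12 probes above 0. Markers of red blood cells were below 0 for 6 of 6 probes, with a median of -0.27 and array medians from -0.62 to -0.17. Of these, 4 were called lower at an unadjusted p under 0.05 in limma, as 2.33% of all probes were. The Hba-a1 probe and an Hba-x probe had nearly equal values except for mutant 4, so they may not be separate measurements. Medians of the endothelial, mesenchymal, macrophage and skeletal muscle lists were 0.03, 0.005, -0.08 and 0.03. No list had a probe past the adjusted threshold, and the part of any of these markers in the channel ratios was not tested. Ratios cannot show whether a defining marker of cortex is present, so the tissue label was not checked by level.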

How the data were processed

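The deposited values of 6 two-colour arrays were used as log2 ratios. RNA was prepared with Trizol, per the labels' protocols. How the authors treated background, filtered spots and normalized is not given in the sources used here. Mest served to read scale and direction, as Cy5 over Cy3 on the log2 scale. The wild-type label of mutant 3, wild type 1, was read as wild type 2.

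Ratios were turned to mutant over wild type and centred on each array's median; a value of 16.61, the log2 of 100000, was taken as missing. All probes with values on at least 4 arrays, 2 per orientation, entered the limma fit (lmFit and eBayes, version 3.58.1, with R 4.3.3 and statmod 1.5.0) with a dye term and the wild type as a random block, with Benjamini-Hochberg adjustment over all 17476 probes at 0.05. Gene names come from the platform's annotation; all 111 channel symbols matched RefSeq, from which promoters came too. The fit was tested on simulated data.

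Members and lists were chosen with earlier results of these data known. Named were Kcnc genes, up to 10 probes per direction with 1 sign, up to 2 per family with values on 6 arrays, 3 genes with the widest gap between probes and 4 companion genes, each by the lowest p. The mutants are separate embryos; the number of arrays limits precision. Alternatives covered the block, dye term, centring, scaling, filters, ceiling values, moderation, whole-number ratios, 1 value per gene and each mutant left out.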

Additional observations from a re-analysis of the deposited data

Results flagged for a closer look

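The named probes with at least 4 values and the medians of the channel sets, 45 items in all, were examined for a single array far from the others. In 4 of them (8.89%) 1 array stood apart, where chance gives about 1 in 20. Kcne3 had 1.76 for mutant 3, with the others from -0.36 to 0.40. Kcns1 had 0.47 for mutant 5, with the others from -0.54 to -0.26. Kcna6 had 0.9995 for mutant 5, with the others from -0.07 to 0.30. The second Scn3b probe had 0.97 for mutant 7, with the others from -0.71 to -0.22.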

How the results depend on the processing

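No channel probe, and no other probe of the array, passed the adjusted threshold in any alternative run. The Kcnc1 log2 ratio stayed below 0 in each, from -2.73 with quantile normalization to -2.06 with centring on Gapdh control spots, and from -2.60 to -2.03 with 1 mutant left out; with values on all 6 arrays required it could not be fitted.

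The count of channel probes at an unadjusted p under 0.05, 4 in the main setting (0 higher), was 7 (1 higher) with no block for the shared wild type, 7 (2 higher) with no dye term, 7 (1 higher) with scaled arrays, 1 (1 lower) with no centring, 1 (1 lower) with values on all 6 arrays, and 13 (11 higher, 2 lower) with Gapdh centring. Shares of all probes called were then 6.4%, 6.14%, 4.54%, 1.28%, 4.46% and 15.8%, against 7.45%, 7.45%, 7.45%, 1.06%, 1.41% and 13.8% of channel probes. The count was 6 (1 higher, 5 lower) with quantile normalization and 5 (1 higher, 4 lower) with values on at least 3 arrays. With no moderation it stayed at 4 (1 higher, 3 lower). These were 6.38%, 4.9% and 4.26% of channel probes, against 4.5%, 4.2% and 5.16% of all probes. Called higher were 1.78%, 1.69% and 2.6% of all probes. With 1 mutant left out, the counts ranged from 2 to 7 in all, 0 to 2 higher and 2 to 5 lower, and probes of 1 sign from 9 to 14.

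No centring and Gapdh centring each moved the median of all probes to 0.26. The medians were then 0.29 and 0.30 for all channels, 0.29 and 0.30 for potassium and 0.25 and 0.27 for calcium, close to that shift. Of the 40 named probes 10 and 11 moved by over 1 SD under these 2, and 9 changed sign under each; 1 value per gene moved 2 and changed the sign of 5. Each array is itself a pair of a mutant and a wild-type cortex, and the fit used these paired ratios. The mutant numbers pair no samples beyond that. All limits follow from 6 arrays without signal levels.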
